A study of Bos taurus with 8 samples.

Results

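Glutathione is the main small thiol of animal cells. Glutamate-cysteine ligase, made of a catalytic subunit (GCLC) and a modifier subunit (GCLM), joins glutamate to cysteine, and glutathione synthetase (GSS) adds glycine. Glutathione reductase (GSR) returns the oxidised disulphide to the reduced thiol. Inside the cell CHAC1 and CHAC2 cleave glutathione to 5-oxoproline and cysteinylglycine. Outside it, gamma-glutamyltransferases such as GGT1 cleave it, and GGT7 is a member of the same family. GGCT releases 5-oxoproline from gamma-glutamyl amino acids, and OPLAH opens 5-oxoproline to glutamate. In preimplantation embryos glutathione is known as a buffer against oxidants formed in culture.

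These 10 genes were taken as the enzymes of glutathione synthesis, recycling and breakdown, and every array probe annotated to one of them was used. There were 13 such probes among 43794 gene probes, of which 8 genes had 1 probe each, GGCT had 2 and GSS had 3. After a filter on dim spots, 11 of the 13 probes, for 9 of the 10 genes, remained among 36995. GGT7 and the third GSS probe did not pass.

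Bovine blastocysts produced in vitro from oocytes of slaughter ovaries were cultured in synthetic oviductal fluid, in 3 steps. BSO, buthionine sulfoximine, which inhibits glutamate-cysteine ligase, was added at 0.4 mM from day 3 to day 5 and at 0.01 mM from day 5 to day 7, and controls received none. Pools of 10 blastocysts were collected 196 h after fertilization, with 4 pools per treatment, and their RNA was amplified and hybridised on 8 dual-colour arrays, BSO against control. BSO was labelled with Cy5 on 4 arrays and with Cy3 on the other 4. The comparison asks whether transcripts of the pathway differ after culture with an inhibitor of its first enzyme, whose last step ended on day 7. Glutathione itself and enzyme activity were not among the values used here. The labels named neither breed nor parents and gave no word on separate cultures, so a p-value here reflects variation among these pools, some of which may be technical.

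Arrays of opposite dye orientation at the same order within slides were averaged to 4 replicates. The values given are log2 BSO over control after normalization within each array. A ratio of this kind shows change relative to the bulk of the probes, whose median was 0.0079. The arrays of replicates 1 and 2 were on a first set of slides and those of replicates 3 and 4 on slide 25. Markers of trophectoderm, the outer layer of the blastocyst, ranged from dim to bright. KRT8 had a median of 255 times and IFNT 109 times the limit of the negative controls. CDX2, a defining trophectoderm factor, read only 1.32 times that limit, and TEAD4, HAND1, ELF5 and GATA3 read 1.20 to 1.73 times. Epiblast markers ran from 1.02 times (SALL4) to 31.2 times (DPPA3), with POU5F1 at 10.9 times. With a median ratio of -0.19, the 13 trophectoderm markers held 5 that were lower and 1 that was higher at an unadjusted p under 0.05. Of 8 epiblast markers 4 were lower and 1 was higher, of 7 measured hypoblast markers 3 were lower, and of 8 measured cumulus and granulosa markers 1 was lower, while AMH and FOXL2 of that list did not pass the brightness filter. Over all 13678 genes with a kept probe, 14.8% were lower and 10.4% higher at that p. Of the lower epiblast markers, SALL4, SOX2 and FGF4 read a median of 1.02 to 1.22 times the limit and NODAL 2.41 times. The higher one was DPPA3 (0.49). The brighter POU5F1 and NANOG had ratios of -0.018 and 0.013 (limma standard errors 0.20 and 0.52). The median level of the trophectoderm list lay between 9.22 and 11.8 over the BSO replicates and between 10.6 and 12.3 over the controls, on the log2 intensity scale. For epiblast markers these ranges were 7.91 to 8.19 and 8.07 to 8.23, for hypoblast markers 10.4 to 11.6 and 11.1 to 11.9, and for cumulus and granulosa markers 7.43 to 7.75 and 7.43 to 7.70. In pooled embryos, fewer cells of a type and less RNA per cell cannot be told apart, and the part of the marker differences in the enzyme values was not tested.

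The probes differed widely in how far they stood above the negative controls, which sets how firmly each gene can be read. GSR was the brightest against that limit, at 34.0 to 117 times over both channels and all arrays. GCLM read 12.6 to 24.4 times, the first GGCT probe 5.88 to 20.2 times and CHAC1 5.93 to 33.5 times. CHAC2 read 1.30 to 2.87 times, so it was detected on every array but stayed near the limit. The remaining 8 probes, for GCLC, GSS, GGT1, GGT7, OPLAH and the second GGCT probe, never read more than 1.36 times the limit. None was near saturation on this measure, since the highest GSR spot had 41.8% of its array's highest intensity.

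**Figure D1:**
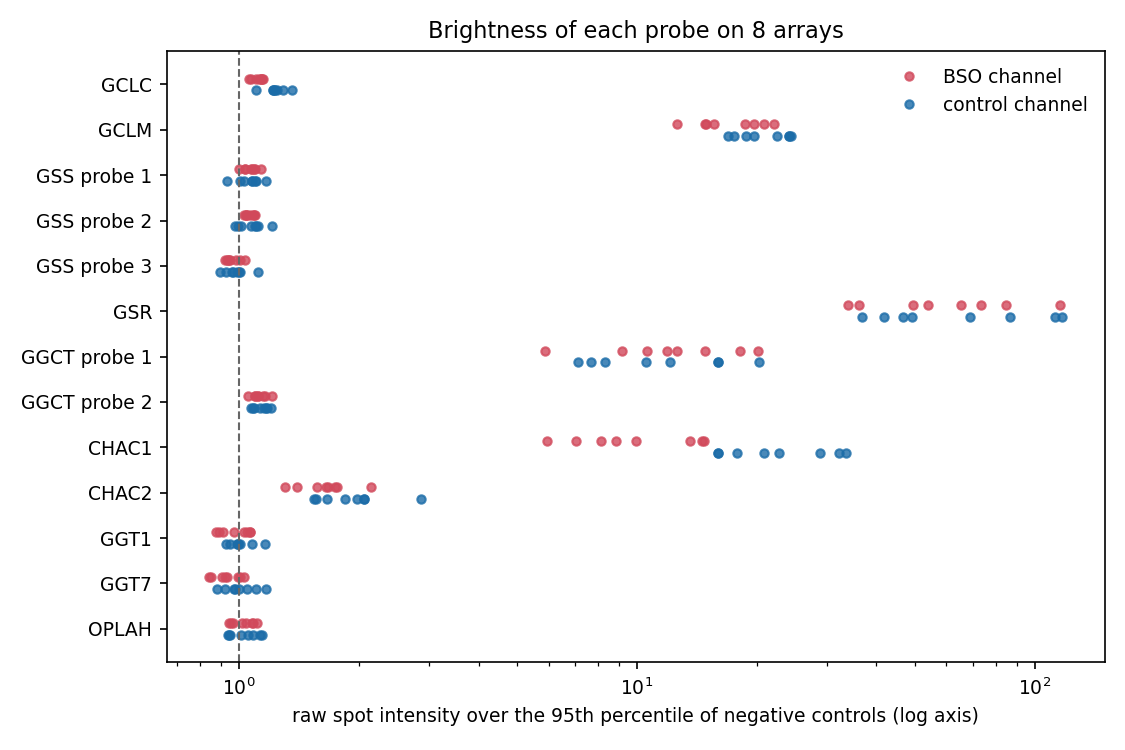
Raw spot intensity of each probe on the 8 arrays, as a multiple of the 95th percentile of the negative controls in the same channel (log axis), with BSO channels in red, control channels in blue and a dashed line at the limit. GSR, GCLM, CHAC1 and the first GGCT probe stand clear of the limit, CHAC2 lies just above it, and the other 8 probes straddle it or sit within 1.36 times of it.

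Ratios of dim spots lay in a narrower range across the array. Among 17826 kept probes with a mean log2 intensity under 7.5, ratios ran from -0.17 at the 5th percentile to 0.10 at the 95th, and 10.1% had an unadjusted p under 0.05. Among 5510 probes over 10 these percentiles were -0.59 and 0.48, and 34.9% had such a p. Of the 11 kept enzyme probes 6 fell in the dim class and 0 of them had an unadjusted p under 0.05. In the bright class 3 of 4 did. A ratio near 0 for GCLC, GSS, GGT1 or OPLAH therefore comes from probes whose range on these arrays was narrow.

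Over the 4 replicates, the largest differences were a lower CHAC1, at -0.78 ± 0.11 (limma standard error, n = 4), a higher GGCT on its bright probe, at 0.51 ± 0.14, and a higher GSR, at 0.34 ± 0.09. The genes of synthesis lay between -0.11 (GCLC) and 0.15 (GCLM). None of the 11 probes passed limma at an adjusted p of 0.05, and 0 of all 36995 kept probes did (0%). The lowest adjusted p over all probes was 0.051. At an unadjusted p under 0.05, 3 of the 11 probes (27.3%) stood against 22.4% of all kept probes, 2 of them higher (8.67% of all) and 1 lower (13.8% of all). The share among the enzymes was thus near the background. With the 8 arrays in 1 fit, the matched pair as a block and a term for dye, CHAC1 and the bright GGCT probe passed the adjusted threshold, which makes 2 of 11 against 10.7% of all kept probes. With the block but no dye term, 0 of the 11 passed, against 9.46% of all. These fits hold 8 arrays but only 4 replicates, each measured in both dyes. They use 1 correlation between paired arrays for all probes (0.54 with the dye term and 0.015 without). Where the paired arrays of a probe were more alike, its treatment p in such fits, here and below, is too small. CHAC1 and the bright GGCT probe were of this kind in the fit with the dye term. Their standard errors were 0.086 and 0.12 there, against 0.11 and 0.14 over the 4 replicates.

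**Figure D2:**
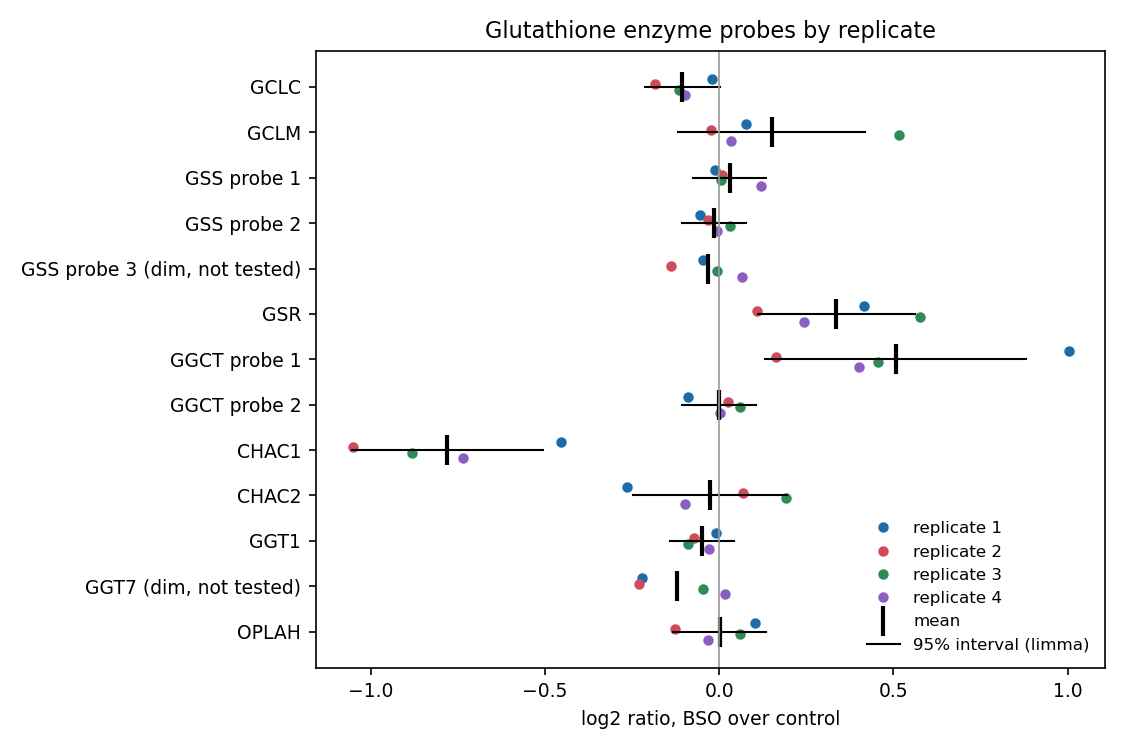
Log2 ratio of BSO over control for the 13 probes, with a coloured point per replicate, a black tick at the mean and a black line for limma's 95% interval (no interval for the 2 dim probes that were not tested). CHAC1 lies below 0 and GSR and the first GGCT probe lie above 0 in all 4 replicates, while the dim probes cluster near 0.

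GCLC, the catalytic subunit that BSO binds, was measured by probe EMBV3_25943. Its ratios were -0.021, -0.19, -0.12 and -0.099 in replicates 1 to 4, below 0 in every replicate, with a mean of -0.11 ± 0.04 (adjusted p = 0.232). The 95% interval of -0.21 to 0.0029 limits a lower ratio of this dim probe to at most 1.16-fold, which does not bound the transcript level. The normalized levels were 7.24 to 7.34 with BSO and 7.34 to 7.51 in controls on the log2 intensity scale, so the groups met at 7.34 without crossing. Same-sign negative ratios in all replicates were found for 3 of the 11 probes (GCLC, CHAC1 and GGT1), against 17.1% of all kept probes. The GCLC spots read 1.06 to 1.15 times the negative-control limit with BSO and 1.10 to 1.36 times in controls.

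GCLM, the modifier subunit, which raises the affinity of the ligase for its substrates, was measured by the bright probe EMBV3_19641. Its ratios were 0.076, -0.024, 0.52 and 0.033, with a mean of 0.15 ± 0.10 (adjusted p = 0.434). Replicate 3 stood well above the others, and the normalized levels of BSO (11.5 ± 0.12, SD, n = 4) and control (11.4 ± 0.13) overlapped. The interval ran from -0.12 to 0.42, so a level up to 1.34-fold higher or 1.09-fold lower lay inside it. Without replicate 3 the mean was 0.028 (adjusted p = 0.773).

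GSS had 3 probes, all close to the limit. Its first probe (EMBV3_42925) gave -0.013, 0.0070, 0.0050 and 0.12, with a mean of 0.030 ± 0.040 (adjusted p = 0.685, 95% interval -0.075 to 0.13). The second (EMBV3_42241) gave -0.056, -0.033, 0.031 and -0.0058, with a mean of -0.016 ± 0.035 (adjusted p = 0.807, 95% interval -0.11 to 0.076). These probes showed no difference larger than the spread between replicates, and their intervals leave at most 1.10-fold in either direction on the measured scale. The third (EMBV3_37928) exceeded the limit on only 2 arrays in the BSO channel and 3 in the control channel. Its ratios of -0.047, -0.14, -0.0075 and 0.066 carry no test.

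GSR, the NADPH-dependent enzyme that reduces glutathione disulphide, was measured by probe EMBV3_01684. Its ratios were 0.42, 0.11, 0.58 and 0.24, above 0 in all 4 replicates. The mean was 0.34 ± 0.09, or 1.26-fold higher, with a 95% interval of 0.11 to 0.56, an unadjusted p of 0.0127 and an adjusted p of 0.128. All-positive ratios were found for GSR and the bright GGCT probe, 2 of 11, against 17.4% of all kept probes. The normalized levels were 12.8, 12.9, 13.8 and 13.8 with BSO and 12.4, 12.7, 13.3 and 13.6 in controls. The groups overlapped because both channels were brighter for this probe in replicates 3 and 4 (slide 25). GSR's ratio exceeded that of all but 3.94% of kept probes. Between the slide sets it differed by -0.15 ± 0.18 (replicates 1 and 2 minus 3 and 4, unadjusted p = 0.464).

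GGCT, gamma-glutamylcyclotransferase, had probes that differed. The bright probe, EMBV3_42255, gave 1.00, 0.16, 0.46 and 0.40, with a mean of 0.51 ± 0.14, or 1.42-fold higher (95% interval 0.13 to 0.88, unadjusted p = 0.0184, adjusted p = 0.146). All replicates were above 0 and replicate 1 was the highest. Its levels were 11.2, 10.4, 11.4 and 11.1 with BSO and 10.2, 10.3, 10.9 and 10.7 in controls, and the groups overlapped. With the matched pair as a block and a dye term the adjusted p was 0.0289, in a fit that counts both arrays of each replicate. Without replicate 3 the unadjusted p was above 0.05. Only 1.05% of kept probes had a higher ratio.

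The second GGCT probe, EMBV3_05002, gave -0.091, 0.026, 0.059 and 0.0024, with a mean of -0.0010 ± 0.041 (adjusted p = 0.99). It read 1.05 to 1.21 times the negative-control limit, so its near-zero ratio has a narrow range behind it. The first probe exceeded the second by 1.10, 0.14, 0.40 and 0.40, with a mean of 0.51 ± 0.41 (SD, n = 4). The exact permutation test (two-sided) gave p = 0.125, the smallest that 4 replicates allow, so it could not have reached 0.05. The higher GGCT ratio thus rests on the bright probe, and the files do not say which transcripts either probe reads.

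CHAC1, a glutathione-specific cyclotransferase known as a target of the stress factors ATF4 and DDIT3, had the largest ratio of the set. Probe EMBV3_21310 gave -0.45, -1.05, -0.88 and -0.74 in replicates 1 to 4. The mean was -0.78 ± 0.11, or 1.72-fold lower (95% interval 1.42 to 2.08-fold), with an unadjusted p of 8.47e-04 and an adjusted p of 0.0644. Only 0.457% of kept probes had a lower ratio. The normalized levels were 10.8, 10.7, 10.6 and 10.8 with BSO and 11.3, 11.7, 11.5 and 11.5 in controls. These groups did not overlap, with 10.7 ± 0.11 against 11.5 ± 0.18 (SD, n = 4). Levels without overlap were found for 2 of the 11 enzyme probes (CHAC1 and, by less than the printed digits show, GCLC), against 6.75% of all kept probes.

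The CHAC1 ratio depended strongly on which dye held BSO. On the 4 arrays with BSO in Cy5 it was -1.35, -1.89, -1.84 and -1.64, a mean of -1.68 ± 0.25 (SD, n = 4). On the 4 arrays with BSO in Cy3 it was 0.44, -0.21, 0.080 and 0.16, a mean of 0.12 ± 0.27. The orientations did not overlap, and their gap of -1.80 was exceeded in size by only 0.311% of kept probes. The dye term was -0.90 ± 0.05 (adjusted p = 7.6e-06). With that term and the matched pair as a block, the treatment ratio of -0.78 had an adjusted p of 0.00248. Taken alone, the arrays with BSO in Cy5 gave an adjusted p of 0.00582 and those with BSO in Cy3 gave 0.517.

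Raw intensities allowed the treatments to be compared within each dye. In Cy5, CHAC1 read 1245, 1235, 1027 and 1188 in BSO pools (replicates 1 to 4) and 1722, 2157, 2005 and 2134 in control pools, which lay on the other arrays. In Cy3 it read 2863, 2352, 2472 and 2679 in BSO pools and 3692, 4897, 4076 and 4261 in control pools. The probe was brighter in Cy3 than in Cy5 for either treatment, and within each dye every BSO pool was below every control pool. The median raw intensity of all gene probes moved the other way: it was 164 to 228 for BSO and 125 to 154 for control in Cy5, and 211 to 276 for BSO and 163 to 207 for control in Cy3.

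After normalization the within-dye differences of CHAC1 were -0.82 in Cy5 and -0.75 in Cy3, without overlap. These differences average to the main ratio by construction, so their shared sign is no separate check of it. Levels lower with BSO and without overlap in both dyes were found for 1 of the 11 enzyme probes, CHAC1, against 1.49% of all kept probes. For raw intensities the share of all kept probes was 0.554%. In the opposite direction 0 of the 11 met the same criterion on normalized levels, against 0.657% of all. On raw intensities the dim second GSS probe, second GGCT probe and OPLAH were higher with BSO without overlap in both dyes. The raw medians of all gene probes were also higher with BSO, and no share of all probes is given for that direction. This within-dye comparison was chosen after the dye gap had been seen. By the pairing used here each pool was labelled in both dyes, so the Cy5 and Cy3 values do not come from separate embryos.

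**Figure D3:**
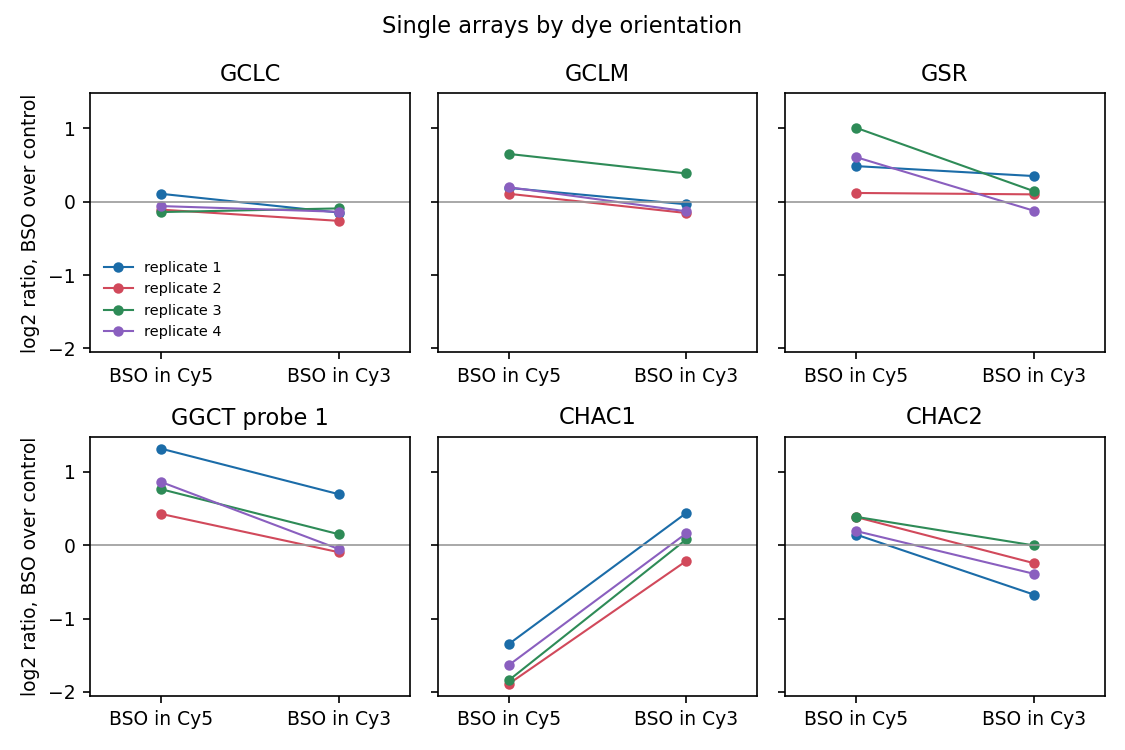
Log2 ratio of BSO over control on single arrays for 6 probes, with the 2 arrays of a replicate joined by a line, BSO in Cy5 on the left and BSO in Cy3 on the right. The CHAC1 lines run from between -1.89 and -1.35 up to between -0.21 and 0.44, CHAC2 crosses 0 in all 4 replicates, and GSR, GGCT and GCLM are lower on the arrays with BSO in Cy3.

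Most of the other enzymes also had a dye term. It passed an adjusted p of 0.05 for 9 of the 11 probes, against 42.5% of all kept probes. In the fit without the replicate block it passed for 2 of the 11, and no share of all probes is given for that fit. The change from 9 to 2 can therefore not be read as particular to the enzymes. The bright GGCT probe had a mean of 0.84 ± 0.37 (SD, n = 4) with BSO in Cy5 and 0.17 ± 0.36 with BSO in Cy3 (dye adjusted p = 0.00358). Its normalized levels were higher with BSO in both dyes, by 0.59 in Cy5 and 0.42 in Cy3, with overlapping groups. GSR had 0.55 ± 0.37 and 0.12 ± 0.19 (dye adjusted p = 0.0365), and its within-dye differences were 0.44 and 0.23, also with overlap. GCLM had 0.29 ± 0.25 and 0.016 ± 0.25 (dye adjusted p = 0.0363), with within-dye differences of 0.15 and 0.15. For these 3 probes the difference had the same sign in Cy5 and in Cy3. The within-dye differences of a probe average to its main ratio by construction, so their shared sign is no separate check of it. What gave rise to the dye terms was not tested, and in replicates 1 and 2 dye orientation cannot be told apart from slide.

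CHAC2, the paralog of CHAC1 known for slow, constitutive cleavage of glutathione in mammalian cells, showed no common direction. Probe EMBV3_07921 gave -0.26, 0.069, 0.19 and -0.098, with a mean of -0.025 ± 0.085 (adjusted p = 0.878, 95% interval -0.25 to 0.20). Its ratio was positive on every array with BSO in Cy5 (0.14, 0.38, 0.39 and 0.19) and negative on every array with BSO in Cy3 (-0.67, -0.24, -0.0032 and -0.39). The within-dye differences were 0.015 in Cy5 and -0.066 in Cy3, with overlap in both. The interval leaves a ratio up to 1.19-fold lower or 1.15-fold higher on this probe near the negative-control limit, which does not bound the transcript level.

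**Figure D4:**
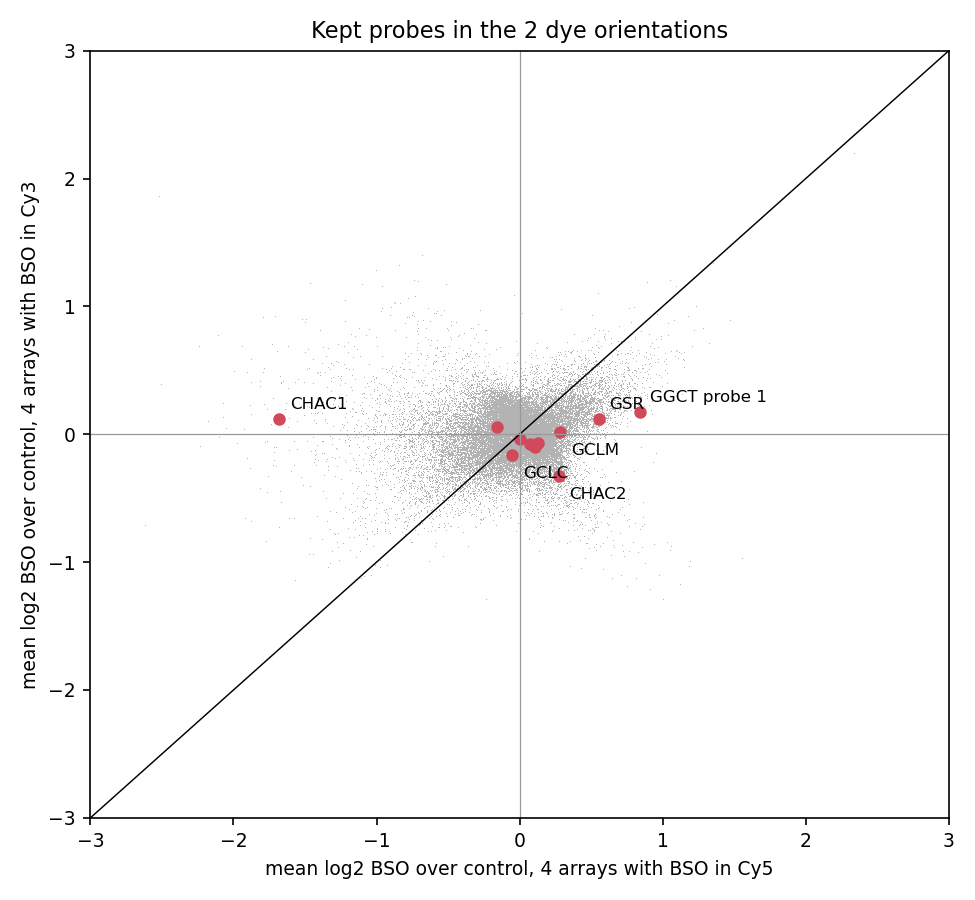
Mean log2 ratio of BSO over control on the 4 arrays with BSO in Cy5 (horizontal) against the 4 with BSO in Cy3 (vertical), with all kept probes in grey, the 11 enzyme probes in red and a black line where the orientations are equal. CHAC1 lies far to the left at -1.68 and 0.12, and GGCT probe 1 and GSR lie to the right of the line with both values above 0.

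The enzymes of extracellular cleavage and of 5-oxoproline were hardly above the negative controls. GGT1 (EMBV3_27302), the transferase of the cell surface, exceeded the limit on 4 arrays in the BSO channel and 3 in the control channel. Its ratios were -0.0092, -0.071, -0.088 and -0.029, with a mean of -0.049 ± 0.035 (adjusted p = 0.449, 95% interval -0.14 to 0.042). OPLAH (EMBV3_33351), 5-oxoprolinase, exceeded the limit on 5 arrays in either channel and gave 0.10, -0.13, 0.059 and -0.032, with a mean of 0.0010 ± 0.051 (adjusted p = 0.993, 95% interval -0.13 to 0.13). GGT1 was below 0 in every replicate, on a probe at the negative-control limit, and the intervals of both probes included 0. GGT7 (EMBV3_10646) exceeded the limit on 2 and 3 arrays and was not tested. Its ratios were -0.22, -0.23, -0.045 and 0.018, with the negative values in replicates 1 and 2. In RefSeq's gene table GGT7 and GSS neighbour each other with 1 gene, ACSS2, between them. The files name no genome build, so no coordinates are given.

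Between the slide sets, 0 of the 11 probes differed at an unadjusted p under 0.05 in limma, against 6.87% of all kept probes, and 0 passed adjustment (0% of all). The largest difference was that of GCLM, at -0.25 ± 0.19, with a mean of 0.026 on the first set and 0.28 on slide 25 (unadjusted p = 0.27). CHAC1 was -0.75 on the first set and -0.81 on slide 25, and the bright GGCT probe was 0.58 and 0.43. The deposited log2 ratios, averaged in the same way, gave -0.78 for CHAC1 (adjusted p = 0.0562), 0.52 for the bright GGCT probe (adjusted p = 0.113) and 0.32 for GSR (adjusted p = 0.105). Over the 13 probes the means from the deposited and the scanner values were at most 0.033 apart, and the sign differed only for the second GGCT probe, CHAC2 and OPLAH, all within 0.03 of 0.

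The genes whose ratios over the 8 arrays followed those of the enzymes most closely were taken from 12739 genes by Pearson correlation, as a description. For CHAC1 they were RC3H1 (r = 0.997), IL17RC (r = 0.997) and SLC2A6 (r = 0.996). Each of these was also negative with BSO in Cy5 (-1.39, -2.51 and -2.11) and positive with BSO in Cy3 (0.26, 0.38 and 0.77), so the difference between the orientations is part of these correlations. For GGCT they were PEG3 (r = 0.988), NIPSNAP1 (r = 0.978) and ALDH7A1 (r = 0.975), and for GSR they were ACTL8 (r = 0.951), RFX5 (r = 0.949) and ZDHHC15 (r = 0.948). The mean ratios of PEG3, NIPSNAP1, ACTL8, RFX5 and ZDHHC15 were -0.035, 0.077, -0.033, 0.069 and -0.010. Each of these was positive with BSO in Cy5 and negative with BSO in Cy3. ALDH7A1 had a mean of 0.54 and was above 0 in both orientations (0.72 and 0.35). The 8 arrays share pools in pairs and share dye orientation in fours.

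The rest of the gamma-glutamyl cycle and of glutathione transport was read from a list of 29 genes, 25 of which were measured. Their median ratio was -0.053, with 16 below 0, against 0.0044 over all 13678 genes. Those lower at an unadjusted p under 0.05 numbered 4 and those higher 0, against 14.8% lower and 10.4% higher of all genes, and 0 passed adjustment (0% of all genes). The 4 of 25 that were lower are near the 14.8% of all genes, so the list as a whole did not stand apart in this count. The 4 are known to supply amino acids for the pathway or to trim its products. SLC7A11 and DPEP1, of like roles, did not reach that p. SLC1A5, a glutamine transporter, gave -0.38, -0.85, -0.39 and -0.61 with a mean of -0.56 ± 0.09 (adjusted p = 0.0792). CTH, which makes cysteine from cystathionine, gave -0.62, -0.46, -0.15 and -0.34 with a mean of -0.39 ± 0.08 (adjusted p = 0.102). Both were below 0 in all replicates, and both passed with the replicate block and dye term (adjusted p = 0.0131 and 0.0216). They were 2 of the 25 measured genes, near the 7.82% of all genes that were lower in that fit. Higher in it were 0 of the list and 5.24% of all genes.

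The dye orientations differed for SLC1A5 (-1.20 with BSO in Cy5 and 0.089 with BSO in Cy3) and were close for CTH (-0.47 and -0.32). SLC3A2, the heavy chain of the cystine transporter, had a mean of -0.35 ± 0.10 (adjusted p = 0.141) on a probe with a median of 1.20 times the limit, and ANPEP, an aminopeptidase that splits cysteinylglycine, had -0.21 ± 0.08 (adjusted p = 0.204). SLC7A11, the light chain of the cystine transporter, had -0.11 ± 0.05 (adjusted p = 0.279), and DPEP1, a dipeptidase of the same substrate as ANPEP, had -0.053 ± 0.056 (adjusted p = 0.601).

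Of 20 regulators of glutathione genes and targets of ATF4, 18 were measured, with a median of -0.049 and 10 below 0. Those lower at an unadjusted p under 0.05 numbered 3 and those higher 0, and 0 passed adjustment. The 3 of 18 that were lower are near the 14.8% of all genes, so the list as a whole did not stand apart in this count. ASNS, asparagine synthetase and an ATF4 target like CHAC1, gave -0.89, -1.47, -0.35 and -0.30 with a mean of -0.75 ± 0.22 (adjusted p = 0.152), and it was lower in both orientations (-0.96 with BSO in Cy5 and -0.54 with BSO in Cy3). ATF4 itself, the transcription factor of the amino acid response, gave -0.070, -0.76, -0.28 and -0.30 with a mean of -0.35 ± 0.12 (adjusted p = 0.185) and similar values in both orientations (-0.39 and -0.32). With the replicate block and dye term the adjusted p was 0.0261 for ASNS and 0.0466 for ATF4. MAFK, a small Maf partner of NFE2L2, had -0.30 ± 0.09 (adjusted p = 0.163), with -0.76 and 0.15 in the orientations.

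Other factors of these routes did not reach an unadjusted p of 0.05. NFE2L2, the activator of antioxidant genes that include GCLC, GCLM and GSR, had -0.067 ± 0.11 (adjusted p = 0.746) on a bright probe. KEAP1, its inhibitor, had -0.22 ± 0.15 (adjusted p = 0.423). DDIT3 had -0.098 ± 0.12 (adjusted p = 0.648) and TRIB3, a target of ATF4 and DDIT3, had -0.24 ± 0.10 (adjusted p = 0.241). Listed genes with ratios above 0 included DDIT4 (0.44 ± 0.22, adjusted p = 0.313), CEBPG (0.14 ± 0.07, adjusted p = 0.323) and PSAT1 (0.10 ± 0.23, adjusted p = 0.813), named here after their values were seen. The list thus had no common direction, with 10 genes below 0 and 8 above.

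**Figure D5:**
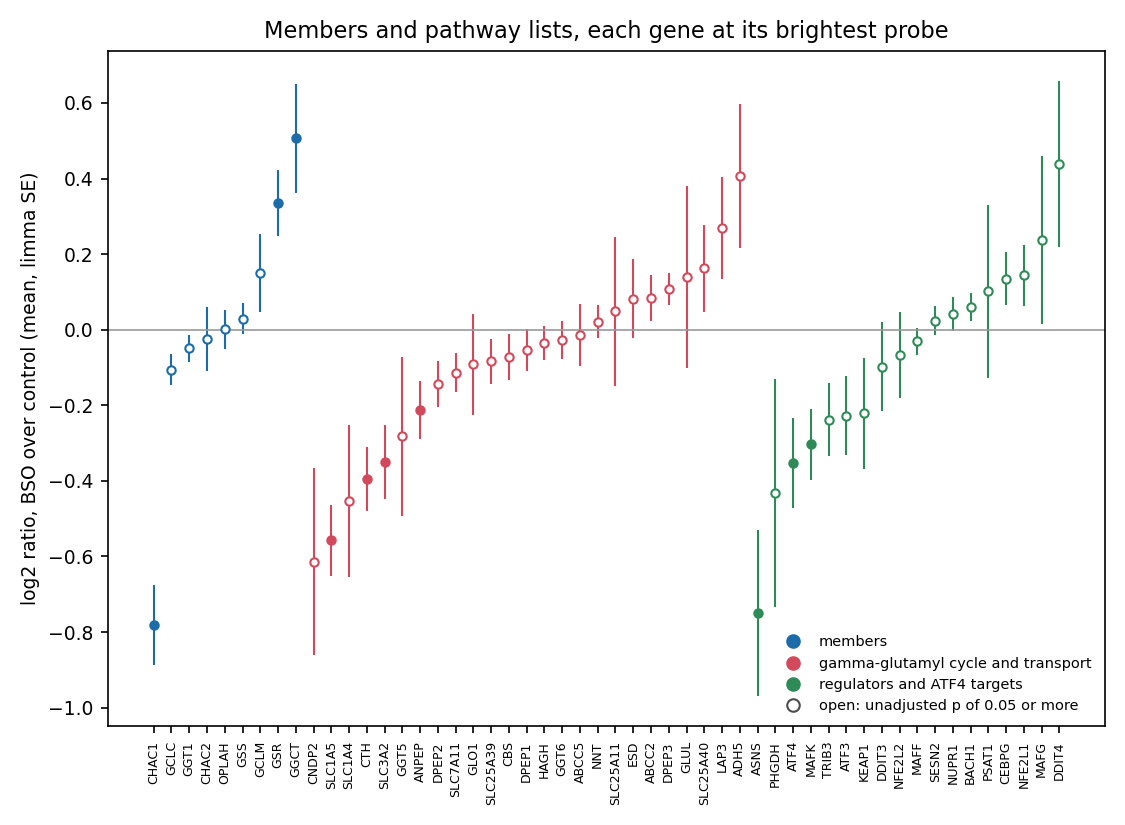
Mean log2 ratio of BSO over control with limma's standard error for the 9 measured enzyme genes (blue), the gamma-glutamyl cycle and transport list (red) and the regulators and ATF4 targets (green), each gene at its brightest kept probe and ordered within its list. Filled points have an unadjusted p under 0.05, which is the case for CHAC1, GSR and GGCT, for 4 red genes and for 3 green genes, all 7 of the latter below 0.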

How the data were processed

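RNA of 4 BSO and 4 control blastocyst pools was measured on 8 dual-colour arrays. The deposited scanner files held raw mean spot and background intensity at 532 nm (Cy3) and 635 nm (Cy5), unnormalized per the file headers. The deposited series table held log2 ratios per probe and array, made with limma per the submitters' processing notes. How it was background-corrected and normalized is not given in the sources used here. Compared with the scanner values, its direction was BSO over control (r over probes 0.889 to 0.989, array medians 0.0011 to 0.013).

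Intensities were corrected with normexp (offset 50) and normalized by loess within arrays in R 4.3.3 with limma 3.58.1, reading tables with jsonlite 2.0.0, and turned to log2 of BSO over control. Levels of each channel came from the same ratios with quantile-scaled mean intensities. Of 45220 spots, 43794 were gene probes and 153 negative controls. A probe was kept where its BSO or its control channel exceeded the negative controls' 95th percentile on 4 or more of the 8 arrays (36995 probes). Platform symbols of 21790 probes were used, 1524 of them updated through RefSeq's table for ARS-UCD2.0, 20025 current and 241 not found there. The brightest kept probe stood for a gene in lists.

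The labels do not say which arrays share pools. Arrays at the same order within slides were paired, and their deviations from the mean of their orientation correlated at 0.657 to 0.843, against at most -0.049 for unpaired arrays. Each pair was averaged to 1 replicate. The mean was tested against 0 with limma (lmFit, eBayes), Benjamini-Hochberg adjusted over all kept probes at 0.05. Dye terms and the replicate block used the 8 arrays (duplicateCorrelation). The steps were tested on simulated data. The number of arrays limits the precision.

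Every probe of each enzyme was named. Pathway genes were named at unadjusted p under 0.05 or from a short list of regulators and transporters. For enzymes at that p, the 3 genes of highest correlation were named. The members, lists and rules were chosen with earlier results of these data known. Alternatives covered the source of the ratios, background, normalization, brightness filter, weights, blocks, left-out replicates and dye orientation. No probe or transcript sequence was used.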

Additional observations from a re-analysis of the deposited data

Results flagged for a closer look

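The ratio of 9 enzyme probes differed between the arrays with BSO in Cy5 and those with BSO in Cy3 (dye term, limma with the replicate block, adjusted p under 0.05). The gap, Cy5 minus Cy3, was -1.80 for CHAC1, 0.67 for the first GGCT probe, 0.60 for CHAC2 and 0.44 for GSR. It was 0.27 for GCLM, -0.22 for GGT1, 0.21 for OPLAH, 0.19 for the first GSS probe and 0.15 for the second GGCT probe. CHAC2, with its gap of 0.60, and the second GGCT probe, with 0.15, had positive ratios on every array of the first orientation and negative ratios on every array of the second.

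A sample stood apart by Dixon's test in 2 of 39 groups of 4, where chance alone gives about 1 in 20. GCLM read 0.65 on the replicate 3 array with BSO in Cy5, and the first GSS probe read 0.12 in replicate 4.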

How the results depend on the processing

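The 2 alternatives by dye orientation were chosen after seeing the data. GCLC stayed below 0 under the 19 alternatives that kept its probe, and GSR and the bright GGCT probe stayed above 0 under 20. GCLM also stayed above 0 under 20, but was 0.028 without replicate 3, 0.026 in replicates 1 and 2 alone and 0.016 with BSO in Cy3 alone. CHAC1 stayed below 0 except on the arrays with BSO in Cy3 alone (0.12). Over all kept probes, 0 passed in the main test, 220 with the deposited ratios, 468 without background correction, 498 with plain subtraction, 91 without the brightness filter, 274 at 2 times the limit and 356 with array weights. With the 8 arrays, 3499 passed with the replicate block, 3948 with the replicate block and dye term, 4278 with slide set as a block, 7011 with a dye term and no replicate block, and 7668 on the arrays with BSO in Cy5 alone. Of the enzyme probes, CHAC1 alone passed at 2 times the limit (1 of 4 tested, against 2.03% of all probes tested). CHAC1 alone also passed with array weights (1 of 11, against 0.962% of all). With the replicate block and dye term 2 passed (10.7% of all). With a dye term and no replicate block 3 passed, adding GSR (19.0% of all), and with BSO in Cy5 alone 3 passed (20.7% of all). At unadjusted p under 0.05 there were 2 to 4 enzyme probes when 1 replicate was left out (15.5% to 21.0% of all kept probes). There was 1 in replicates 1 and 2 alone (14.3% of all), and there were 7 with BSO in Cy5 alone (39.3% of all). The dye term passed for 9 enzyme probes with the replicate block (42.5% of all kept probes). Without the block it passed for 2, and no share of all probes is given there, so that count has no background to be read against. At unadjusted p, GCLC had 0.0392 with the replicate block, 0.0800 with the replicate block and dye term and 0.0208 with a dye term and no replicate block, against 0.0543 in the main test.

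The sign of dim probes turned. The second GGCT probe read 0.012 with the deposited ratios, 0.0100 without background correction, 0.013 with subtraction, 0.042 with median centring, 0.012 with array weights, 0.029 without replicate 1 (from -0.021 over the left-out replicates), 0.031 in replicates 3 and 4 and 0.075 with BSO in Cy5. OPLAH read -0.00055, -0.0029, -0.0026 and -0.0083 under the first 4 of these, -0.033 without replicate 1, -0.018 without replicate 3 (up to 0.043 without replicate 2), -0.012 in replicates 1 and 2 and -0.10 with BSO in Cy3. CHAC2 read 0.0078 with the deposited ratios, 0.017 with weights, 0.054 without replicate 1 (from -0.098 without replicate 3), 0.047 in replicates 3 and 4 and 0.28 with BSO in Cy5. The first GSS probe read -0.00041 without replicate 4 (up to 0.044 without replicate 1), -0.0031 in replicates 1 and 2 and -0.067 with BSO in Cy3. The second read 0.0022 with median centring, 0.012 in replicates 3 and 4 and 0.00099 with BSO in Cy5, and GGT1 read 0.059 with BSO in Cy3. Of all kept probes, 25.8% had an unadjusted p under 0.05 with the replicate block, 39.3% with BSO in Cy5 and 26.6% with BSO in Cy3. With 1 replicate left out the share was 15.5% to 21.0%. In the gamma-glutamyl list, members at that p numbered 9 of 25 with the replicate block. They numbered 8 with BSO in Cy5 and 10 with BSO in Cy3, where the list median was 0.022. In the regulator list they numbered 5 of 18 with the block, 2 to 5 with 1 replicate left out and 9 with BSO in Cy5. Its medians were -0.17 and 0.032 by orientation. The cause was not tested. Signal near the negative controls limits GCLC, GSS, GGT1, GGT7 and OPLAH.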
